A study of Trametes versicolor and Gelatoporia subvermispora with 30 samples.

Results

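A group of 121 genes of the white-rot fungus Trametes versicolor gave many reads in every culture that contained cellobiose and few reads on milled poplar wood. They were chosen from 12295 tested genes, 0.984% of them, by their mean CPM, the count of a gene divided by the library size after TMM scaling. Each had a mean of at least 10 CPM with cellobiose alone, with 4-hydroxybenzoic acid (4HBA), with syringic acid and with isolated lignin. Each of these 4 means was at least 5 times the mean on poplar, and the 4HBA mean was less than 2 times the cellobiose mean. The genes also carried a locus tag starting with TRAVEDRAFT_ in the deposited files, which 12253 of the tested genes did. The difference between poplar and the other cultures, and the upper limit on the 4HBA response, are therefore how the genes were found, and they are described here without a test.

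The study grew T. versicolor in an adapted Czapek-Dox minimal medium under 5 conditions and sequenced RNA from 3 libraries of each. Cellobiose cultures held 5 g of this disaccharide per litre. The acid cultures held cellobiose with 2 mM 4HBA or with 2 mM syringic acid, and the lignin cultures held cellobiose with 25 mg of lignin isolated from poplar in 25 mL. The poplar cultures held 2 g of milled poplar in 25 mL and were the only ones with no cellobiose, so the presence of wood and the absence of cellobiose cannot be told apart. No strain, genotype or culture age is given here for any group, and nothing in the labels says whether the 3 libraries of a group came from separate cultures. The p-values thus measure the spread between libraries, which may be technical.

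White-rot fungi are basidiomycetes that break down cellulose, hemicellulose and lignin in wood. Cellobiose is the disaccharide released when cellulose is cut, and fungi take it up directly or split it into glucose. Syringic acid is a small phenolic compound with the ring pattern of the syringyl units of hardwood lignin, and it carries a pair of methoxy groups beside the hydroxyl group, which 4HBA lacks.

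Gene counts summed to between 16.7 and 50.4 M (mega-counts) per library, and a count of 3 corresponded to 0.0613 to 0.205 CPM. The libraries fell into 2 kinds. In the 6 cellobiose and 4HBA libraries, 45.8% to 48.7% of all counts belonged to no gene and the 10 most abundant genes took 41.9% to 48.4% of gene counts. In the 9 syringic acid, lignin and poplar libraries these shares were 9.6% to 14.2% and 3.84% to 7.45%. Comparisons of syringic acid or lignin with cellobiose or 4HBA cross this line, and there the culture condition and the kind of library cannot be told apart. The comparison of lignin with syringic acid, and that of poplar with either of them, stay within 1 kind. The poplar libraries still differed from the lignin and syringic acid libraries, with 42.2 to 50.4 M counts against 16.7 to 27.3 M and TMM factors of 0.971 to 1.01 against 1.42 to 1.51. The sample titles number the lignin and syringic acid libraries in 1 style and the poplar, cellobiose and 4HBA libraries in another. Poplar and these differences cannot be told apart.

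On poplar the 121 genes were low but not silent. The lowest count of any of them in a poplar library was 19, and none was at 0. Their poplar means ran from 0.534 to 200 CPM with a median of 4.39 CPM. With cellobiose they ran from 10.8 to 4290 CPM with a median of 102 CPM, and the medians with 4HBA, syringic acid and lignin were 81.4, 68 and 75.8 CPM. The mean over the 4 cellobiose-containing groups was 5.53 to 181 times the poplar mean, with a median of 15.9. The ratio was at least 20 for 51 genes, at least 50 for 17 and at least 100 for 5, while the poplar mean was below 1 CPM for 3 genes and below 10 CPM for 90. In all 121 genes the 3 poplar libraries lay below the other 12. The same held for 2900 of all tested genes, 23.6%, and since the selection used these values nothing is read from the count.

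**Figure D1:**
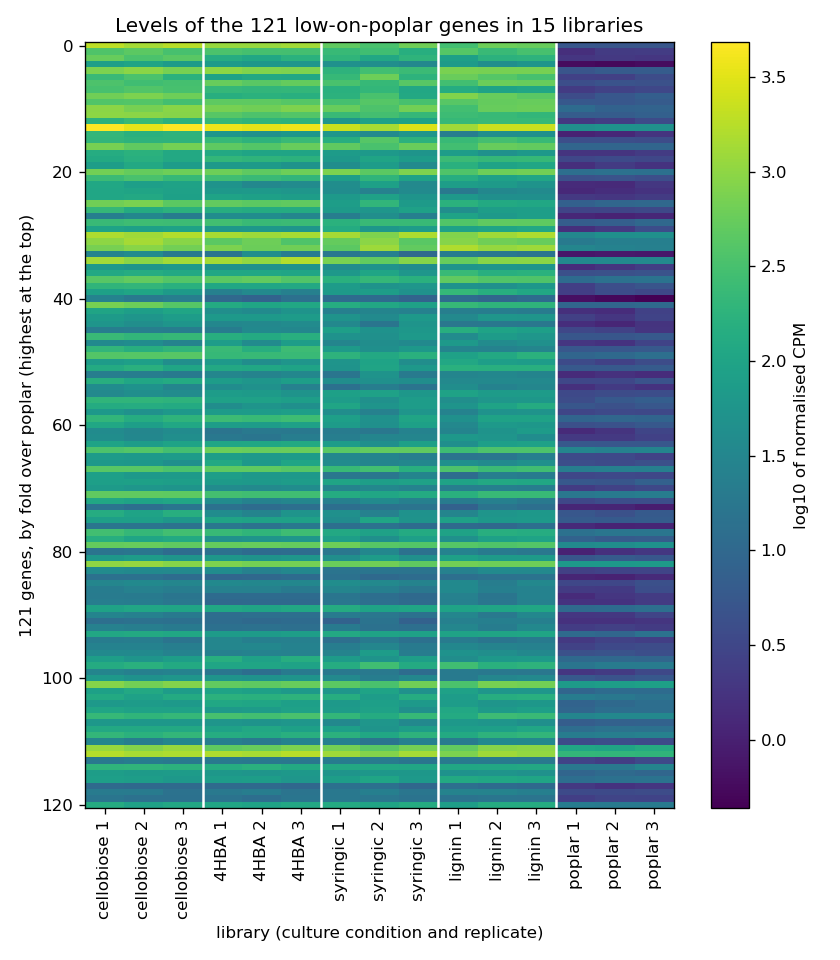
Heatmap of the 121 genes (rows, ordered by the ratio of the mean of the 4 cellobiose-containing groups to the poplar mean) in the 15 T. versicolor libraries (columns), coloured by log10 CPM. The 3 poplar columns are the darkest in every row, with poplar means of 0.534 to 200 CPM, and the columns of the other 4 groups differ from gene to gene.

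The gene with the widest ratio was TRAVEDRAFT_166830. Its libraries held 1870, 1360 and 1740 CPM with cellobiose, 1160, 1150 and 1340 with 4HBA, 493, 332 and 646 with syringic acid, 286, 608 and 544 with lignin, and 5.39, 5.17 and 5.35 on poplar. The cellobiose and 4HBA libraries were the high ones, the syringic acid and lignin libraries lay between, and the poplar libraries were far below all of them. Poplar counts for this gene were 229 to 253 per library, so its low level was still counted. TRAVEDRAFT_148196, with a ratio of 155, held 371, 466 and 326 CPM with cellobiose, 344, 310 and 298 with 4HBA, 229, 273 and 148 with syringic acid, 417, 243 and 319 with lignin, and 1.53, 2.23 and 2.29 on poplar. Its syringic acid libraries lay below those with cellobiose and with 4HBA, its lignin libraries overlapped with all 3 of these groups, and its poplar libraries were far below.

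The genes TRAVEDRAFT_43889, TRAVEDRAFT_48307 and TRAVEDRAFT_168924 followed with ratios of 114, 110 and 110. TRAVEDRAFT_43889 held 550, 342 and 451 CPM with cellobiose against 141, 113 and 164 with 4HBA, 190, 115 and 186 with syringic acid, 87.3, 171 and 178 with lignin, and 1.93, 2.04 and 1.9 on poplar. Here cellobiose alone was higher than every other culture with no overlap. TRAVEDRAFT_48307 was the weakest of the 5, with 83.8, 99.4 and 72.8 CPM with cellobiose and 0.565, 0.531 and 0.597 CPM on poplar, the latter from 24 to 26 counts. The next ratios were 95.2 for TRAVEDRAFT_71287, 92 for TRAVEDRAFT_32807 and 76.2 for TRAVEDRAFT_156714. These 3 did not share an order of the remaining groups. TRAVEDRAFT_32807 was at 558, 447 and 535 CPM with 4HBA against 357, 279 and 311 with cellobiose, while TRAVEDRAFT_156714 was at 211, 200 and 210 CPM with 4HBA against 322, 382 and 324 with cellobiose.

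Of the 8 genes that took the most reads over the 4 groups, TRAVEDRAFT_166830 was also among the 8 with the widest ratios. TRAVEDRAFT_72019 took the most reads of all. It held 4810, 3390 and 4670 CPM with cellobiose, 3760, 3330 and 3860 with 4HBA, 2320, 1420 and 2960 with syringic acid, 1290, 2320 and 2290 with lignin, and 43.1, 49.7 and 49.1 on poplar. It had the highest mean of the group in all 4 cellobiose-containing cultures. TRAVEDRAFT_130108 kept the most reads on poplar, 208, 199 and 194 CPM, against 1730, 1440 and 1520 CPM with cellobiose. TRAVEDRAFT_28356 and TRAVEDRAFT_33990 also averaged over 1000 CPM over the 4 groups, at 1320 and 1030 CPM, and fell to 41 ± 7.48 and 35.5 ± 1.21 CPM on poplar (SD, n = 3). TRAVEDRAFT_117926 was highest with lignin, at 1320 ± 263 CPM, against 774 ± 135 CPM with cellobiose and 27.9 ± 3.19 CPM on poplar (SD, n = 3). TRAVEDRAFT_60144 and TRAVEDRAFT_64341 were highest with cellobiose, at 1060 ± 167 and 1000 ± 111 CPM, against 113 ± 16.8 and 68.1 ± 1.53 CPM on poplar (SD, n = 3).

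Summed over the 121 genes, the CPM was 32020 to 35390 in the cellobiose libraries, 25380 to 28150 with 4HBA, 19030 to 20880 with syringic acid, 21050 to 24350 with lignin and 1297 to 1460 on poplar. As a share of raw gene counts, the same sum was 2.29% to 2.45%, 1.67% to 2%, 2.87% to 2.96%, 3.09% to 3.57% and 0.13% to 0.145%. Poplar was lowest on both scales, but cellobiose was the highest group in CPM and lignin the highest in raw share. Genes that are not in the RefSeq table took 41.6% to 48.1% of gene counts with cellobiose alone or with 4HBA, against 0.448% to 1.2% in the other 3 groups. As a share of the counts of genes in that table, the sum was 4.19% to 4.45% with cellobiose, 3.15% to 3.47% with 4HBA, 2.91% to 2.99% with syringic acid and 3.13% to 3.6% with lignin, so cellobiose was highest there as in CPM.

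The rule was also applied with each poplar library left out in turn, to describe the left-out library. Without poplar library 1 the rule chose 121 genes, of which 117 were in the group above. In the left-out library all 121 were below the lowest of the 12 cellobiose-containing libraries, and for 114 each of the 4 group means was still at least 5 times its value. Without library 2 these counts were 121 and 115 of 121 genes chosen, and without library 3 they were 130 and 113 of 130. The median ratio in the left-out library was 10.9, 10.2 and 8.59, with a lowest value of 2.74. The 12 libraries it was set against were used in every choice, so these counts largely follow from the selection. They describe how alike the 3 poplar libraries were and are no independent check of the low level.

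At the edge of the rule there was no gap. Just inside were TRAVEDRAFT_60179, TRAVEDRAFT_54625 and TRAVEDRAFT_75109, whose smallest ratios to poplar were 5.05, 5.06 and 5.09. Just outside were TRAVEDRAFT_32648, TRAVEDRAFT_118266 and TRAVEDRAFT_122036 at 4.99, 4.95 and 4.94. Of 6833 genes with at least 10 CPM in each of the 4 groups, 141 met the limit of 5 times poplar, and 17 of these were set aside because of their 4HBA response. Another 3 met every limit but carry a symbol in place of a locus tag, the peroxidase genes MnP1s, VP2 and MnP5s. Manganese peroxidases and versatile peroxidases are secreted heme enzymes that oxidise lignin. VP2 averaged 409 CPM with cellobiose, 546 with 4HBA, 108 with syringic acid, 96.9 with lignin and 11 on poplar, and MnP5s averaged 100, 34.1, 14.6, 20.9 and 1.01 CPM. Of 13 tested MnP genes 2 met all limits, of 3 VP genes 1 did, and of 7 laccase genes (TvLac) none did, where 1.01% of all tested genes did. The symbols did not share a direction, since MnP7s averaged 75.4 CPM on poplar and 0.497 to 1.05 CPM in the other groups.

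The 121 genes were not at an even level across the cellobiose-containing cultures. The highest of the 4 means was 2.04 times the lowest at the median, against 1.39 for all genes with at least 10 CPM in the 4 groups. The median coefficient of variation between libraries of a group is given here beside that of the same larger set of genes. It was 13.5% against 6.7% with cellobiose, 9.51% against 6.88% with 4HBA, 23.9% against 9.66% with syringic acid, 22.1% against 7.04% with lignin and 11.6% against 4.9% on poplar. Cellobiose was the highest of the 4 groups for 56 genes, lignin for 33, 4HBA for 25 and syringic acid for 7. These are 46.3%, 27.3%, 20.7% and 5.79% of the 121, where the shares of all 6745 genes with at least 10 CPM in the 4 groups and a 4HBA mean under 2 times the cellobiose mean were 25.9%, 21.9%, 32.8% and 19.3%. Syringic acid was the lowest group for 43 genes, lignin for 37, 4HBA for 29 and cellobiose for 12. These are 35.5%, 30.6%, 24% and 9.92%, against 24.7%, 31%, 23.4% and 20.9%, so the shares for lignin and 4HBA were near those of the larger set. The selection set a floor in each of the 4 groups, so a gene that fell close to its poplar level with an acid or with lignin could not be among the 121. The limit on the 4HBA response set aside 17 genes that met the other limits on level and ratio, so the counts for 4HBA and cellobiose are in part set by the selection. These rankings, and the ratio of highest to lowest mean, also cross the 2 kinds of library. There the culture condition and the kind of library cannot be told apart.

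The comparison of lignin with syringic acid asks how cultures given polymeric lignin differ from those given a single aromatic acid, and it stays within 1 kind of library. With edgeR's quasi-likelihood test, 24 of the 121 genes, 19.8%, were higher with lignin at an adjusted p below 0.05, 4 were lower, 3.31%, and 93 did not pass. Of all tested genes 8.74% were called, 3.95% higher and 4.79% lower, and of the 6833 genes with at least 10 CPM in the 4 groups 4.77% were higher and 5.05% lower. The median log2 difference was 0.15 over the 121 genes and -0.01 over all tested genes. Without syringic acid library 2 the counts were 42 higher and 5 lower, against 8.37% and 9.94% of all genes, and in a fit of these 6 libraries alone they were 13 and 1, against 1.44% and 1.36%. The number of calls thus moved with single libraries and with the set of libraries fitted, while the calls among the 121 genes were mostly toward lignin in each of these fits.

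**Figure D2:**
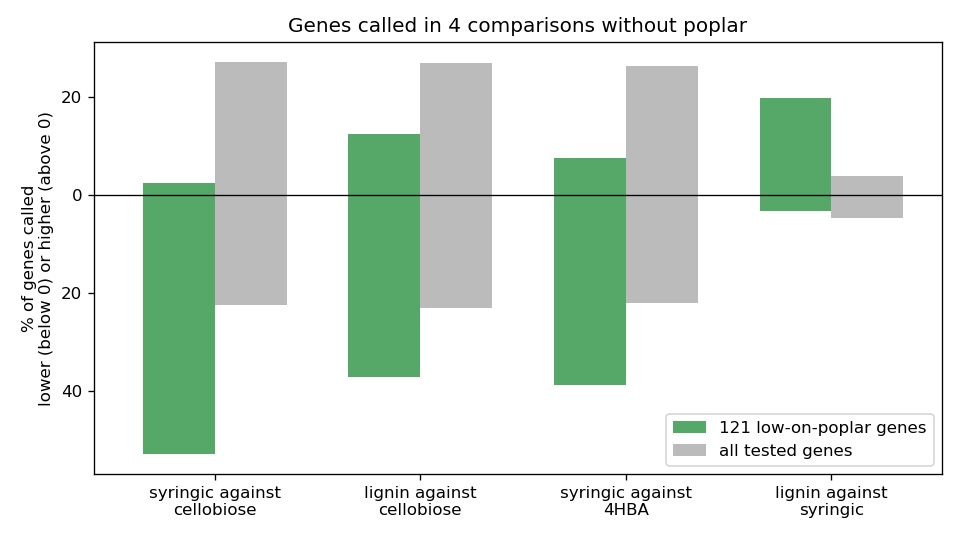
Percentage of genes called higher (above 0) or lower (below 0) at an adjusted p below 0.05 in 4 comparisons, for the 121 genes (green) and for all 12295 tested genes (grey). In lignin against syringic acid 19.8% of the 121 genes were higher and 3.31% lower, and in syringic acid against cellobiose 2.48% were higher and 52.9% lower.

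The widest difference was at TRAVEDRAFT_168924, with 182, 289 and 252 CPM in the syringic acid libraries and 739, 702 and 723 CPM in the lignin libraries. The cellobiose libraries were at 775, 944 and 705 CPM, those with 4HBA at 979, 811 and 790 CPM, and the poplar libraries at 5.09, 6.42 and 6.49 CPM. Among the cultures with cellobiose this gene was low in the 3 syringic acid libraries alone, and the lignin libraries lay just below or within the range of the cellobiose ones. The log2 difference of lignin from syringic acid was 1.58 with a standard error of 0.15 (adjusted p = 1.3e-05). TRAVEDRAFT_51130 was likewise lowest with syringic acid among these cultures, with 173, 228 and 174 CPM with cellobiose, 211, 194 and 179 with 4HBA, 58.9, 91.1 and 92.1 with syringic acid, 223, 241 and 235 with lignin and 2, 2.39 and 3.65 on poplar. Its syringic acid libraries did not overlap with those of any other group. The log2 difference of lignin from syringic acid was 1.53 with a standard error of 0.18 (adjusted p = 6.7e-05). TRAVEDRAFT_53325, at 61.6, 101 and 72.5 CPM with syringic acid and 247, 215 and 223 CPM with lignin, differed by 1.55 with a standard error of 0.15 (adjusted p = 1e-05). For this gene lignin was also above all 3 cellobiose libraries, which held 123, 154 and 118 CPM.

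TRAVEDRAFT_71517 was low with both acids. It held 637, 768 and 623 CPM with cellobiose, 149, 167 and 157 with 4HBA, 175, 327 and 118 with syringic acid, 820, 556 and 440 with lignin, and 3.86, 5.37 and 7.11 on poplar. The acid libraries lay below every cellobiose and every lignin library, and the lignin libraries spread from above to below the cellobiose ones. Lignin exceeded syringic acid by 1.55 on the log2 scale with a standard error of 0.30 (adjusted p = 0.00415), and the call was lost in the fit of the 6 libraries alone (adjusted p = 0.0749). TRAVEDRAFT_45649 was higher with lignin instead, at 95.1, 67.2 and 80.6 CPM, against 24.4, 32.8 and 21.7 with cellobiose, 40.4, 41 and 31 with 4HBA and 22.2, 42.7 and 24.6 with syringic acid. Its lignin libraries lay above all others, by 1.45 on the log2 scale over syringic acid with a standard error of 0.21 (adjusted p = 5.27e-04).

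**Figure D3:**
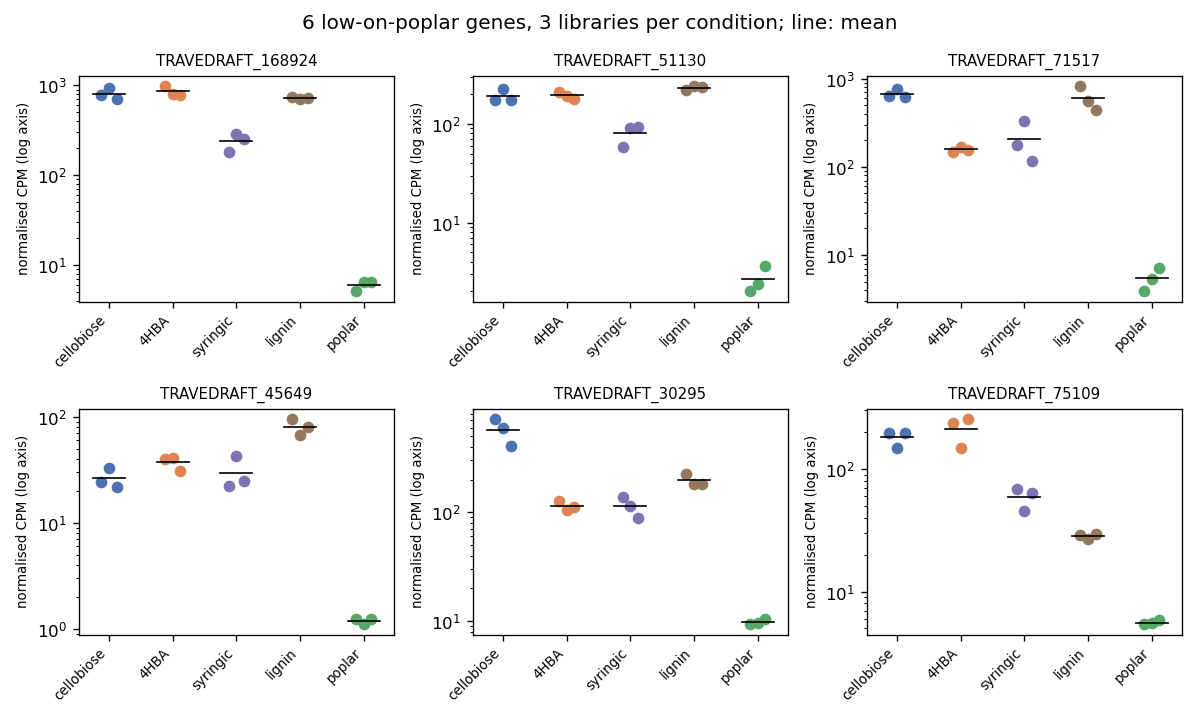
CPM (log axis) of TRAVEDRAFT_168924, TRAVEDRAFT_51130, TRAVEDRAFT_71517, TRAVEDRAFT_45649, TRAVEDRAFT_30295 and TRAVEDRAFT_75109 in the 5 groups, each point a library and each line the mean of 3. The syringic acid points of TRAVEDRAFT_168924 lie at 182 to 289 CPM against 702 to 739 CPM with lignin, and in all 6 panels the poplar points are lowest.

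The 4 genes lower with lignin were TRAVEDRAFT_75109, TRAVEDRAFT_130193, TRAVEDRAFT_75039 and TRAVEDRAFT_56531. TRAVEDRAFT_75109 held 198, 149 and 196 CPM with cellobiose, 238, 148 and 254 with 4HBA, 68.7, 45.3 and 63.2 with syringic acid, 28.7, 26.9 and 29.7 with lignin, and 5.39, 5.52 and 5.87 on poplar. It stepped down from cellobiose and 4HBA to syringic acid and again to lignin, with no overlap between these steps. The log2 difference of lignin from syringic acid was -1.06 with a standard error of 0.18 (adjusted p = 0.00181). The calls of TRAVEDRAFT_130193, at -0.99, and TRAVEDRAFT_75039, at -0.62, were weaker. Their libraries overlapped between the groups, and their adjusted p rose from 0.0376 to 0.216 without syringic acid library 3 and from 0.0162 to 0.0816 without lignin library 1. The first of these calls was also lost without cellobiose library 1, 4HBA library 1, syringic acid library 1 or any 1 lignin library, and the second without lignin library 2 or syringic acid library 1. TRAVEDRAFT_56531 held 441, 522 and 499 CPM with syringic acid and 267, 358 and 355 CPM with lignin, a log2 difference of -0.58 with a standard error of 0.12 (adjusted p = 0.00767, and 0.0793 in the fit of the 6 libraries alone).

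Against cellobiose alone, the 121 genes were mostly lower with syringic acid. By edgeR's quasi-likelihood test 64 were lower, 52.9%, and 3 were higher, 2.48%, while 54 did not pass, and of all tested genes 49.5% were called, 22.4% lower and 27.1% higher. Of the 6833 genes with at least 10 CPM in the 4 groups, the set closer in level to the 121, 33.5% were lower and 21.8% higher. The median log2 difference was -0.57, against 0.07 over all tested genes and -0.07 over those 6833. This comparison crosses the 2 kinds of library. The cellobiose mean also entered the selection through the limit on 4HBA, which the larger sets of genes do not carry. TRAVEDRAFT_30295 held 717, 602 and 408 CPM with cellobiose and 139, 115 and 88.4 CPM with syringic acid. The groups were far apart, by -2.34 on the log2 scale with a standard error of 0.19 (adjusted p = 2.29e-07). TRAVEDRAFT_132042 fell by 2.42 and TRAVEDRAFT_173629 fell by 2.04, the latter from 238, 200 and 226 CPM to 50.1, 47.2 and 63.6 CPM. TRAVEDRAFT_139099 fell by 1.96 (adjusted p = 3.43e-08), from 489, 492 and 470 CPM to 135, 107 and 131 CPM. The 3 genes that rose were TRAVEDRAFT_136033, TRAVEDRAFT_58459 and TRAVEDRAFT_56531, by 1.52, 1.00 and 0.48. TRAVEDRAFT_136033 went from 22.4, 23.1 and 22.2 CPM to 83.8, 49.5 and 61 CPM, with no overlap.

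Between lignin and cellobiose alone, 45 of the 121 genes were lower with lignin, 37.2%, and 15 were higher, 12.4%, while 61 did not pass edgeR's quasi-likelihood test. Of all tested genes 49.9% were called, 23.0% lower and 26.9% higher. Of the 6833 genes with at least 10 CPM in the 4 groups 33.7% were lower, near the share of the 121, and 22.2% higher. The median log2 difference was -0.27, against 0.07 over all tested genes and -0.07 over the 6833. The comparison again crosses the 2 kinds of library, and the cellobiose mean again entered the selection through the limit on 4HBA. TRAVEDRAFT_75109 fell by 2.67 with a standard error of 0.19 (adjusted p = 5.44e-08). TRAVEDRAFT_49273, at 208, 161 and 181 CPM with cellobiose and 22.6, 43.3 and 44.5 CPM with lignin, fell by 2.31. TRAVEDRAFT_126095 fell by 2.27, from 110, 97.8 and 106 CPM to 20.6, 25.4 and 19.1 CPM, and TRAVEDRAFT_132042 fell by 2.18. In each of these 4 genes the lignin libraries lay below the cellobiose libraries without overlap. The largest rise was that of TRAVEDRAFT_136033, to 148, 96.2 and 84.5 CPM, a log2 difference of 2.28 with a standard error of 0.24 (adjusted p = 2.49e-06). TRAVEDRAFT_45649 rose by 1.62, TRAVEDRAFT_58459 by 1.03 and TRAVEDRAFT_98550 by 0.89. TRAVEDRAFT_98550 held 215, 149 and 117 CPM with lignin, against 85.5, 104 and 70.4 with cellobiose.

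The 2 acids were given at the same concentration of 2 mM, and this 1 pair of compounds was compared. With syringic acid 47 of the 121 genes were lower than with 4HBA, 38.8%, and 9 were higher, 7.44%, while 65 did not pass edgeR's quasi-likelihood test. Of all tested genes 48.2% were called, 22.0% lower and 26.2% higher. Of the 6833 genes with at least 10 CPM in the 4 groups 34.6% were lower, near the share of the 121, and 20.9% higher. The median log2 difference was -0.28, against 0.10 over all tested genes and -0.08 over the 6833, and the 4HBA and syringic acid libraries are of different kinds. The limit on the 4HBA response set aside 17 genes that met the other limits on level and ratio. All tested genes and the 6833 carry no such limit, so the split among the 121 is in part set by the selection. With upper-quartile scaling the split was 35 lower and 18 higher, and the median over all genes was 0.25. The shares of all tested genes were not computed under that scaling, so nothing is read from this split. The widest fall was at TRAVEDRAFT_132042, with 519, 467 and 492 CPM with 4HBA and 77.5, 198 and 69.7 CPM with syringic acid, a log2 difference of -2.10 with a 95% interval of -2.76 to -1.44 (adjusted p = 6.3e-05). TRAVEDRAFT_75109, TRAVEDRAFT_168924 and TRAVEDRAFT_154124 differed by -1.85, -1.84 and -1.73. The acid groups of these 4 genes did not overlap.

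On the higher side, TRAVEDRAFT_71287 held 94.5, 120 and 116 CPM with 4HBA and 219, 625 and 180 CPM with syringic acid, a log2 difference of 1.63 with a 95% interval of 0.82 to 2.44 (adjusted p = 0.00249). Syringic acid library 2 was far above the other two. TRAVEDRAFT_98550 and TRAVEDRAFT_136033 differed by 1.19 and 1.11. TRAVEDRAFT_60179 differed by 0.87, and by 0.44 without syringic acid library 2 (adjusted p = 0.0608). Some genes gave closely bounded differences near 0. TRAVEDRAFT_30295, which was far below cellobiose with either acid, held 128, 104 and 112 CPM with 4HBA and 139, 115 and 88.4 CPM with syringic acid, a log2 difference of -0.01 with a 95% interval of -0.39 to 0.37 (adjusted p = 0.982). For TRAVEDRAFT_150526, picked after its values were seen, the difference was -0.04 with an interval of -0.22 to 0.13.

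The 4HBA response to cellobiose was limited from above by the selection and is given as a description. Relative to cellobiose, 35 of the 121 genes were lower with 4HBA and 7 higher, where 16.4% of all tested genes were called in either direction and 7.35% were lower, and nothing is read from these counts. The lowest values were those of TRAVEDRAFT_30295, at -2.33 on the log2 scale, TRAVEDRAFT_71517, at -2.10, and TRAVEDRAFT_49273, at -1.73. The last of these held 57.1, 49 and 59.4 CPM with 4HBA, close to its 58.5, 38 and 56.3 CPM with syringic acid. Among the 17 genes that the limit set aside, TRAVEDRAFT_50755 averaged 54.9 CPM with cellobiose, 558 with 4HBA and 1.41 on poplar.

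Some genes of the group lay next to each other in the genome. Gene order was taken from the RefSeq annotation of T. versicolor, in which 14560 of 14570 genes of the files were found. All 121 are protein-coding there. The annotation as used here gave no product names for any gene, so what the 121 encode was not looked up. Of the 121, 24 had another of them as an immediate neighbour, 19.8%, against 1.6% of 12164 other tested genes with such a neighbour. Within 5 places the shares were 32.2% and 7.04%, and within 10 places 39.7% and 12.8%. These shares are a description, since neighbours in a genome are not independent and no test was made. The neighbours formed 17 stretches, of which 14 held 2 of the genes, 2 held 3 and 1 held 5, and 82 genes stood alone.

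The stretch with 5 lay inside the longest run of consecutive genes that were at least 3 times their poplar mean in each of the 4 other groups. That limit was chosen after the values were seen, and 577 tested genes, 4.7%, met it. Most such genes stood alone, 366 of them, or in pairs, 72 pairs, and the next longest run had 7 genes. The run of 13 consists, in order, of TRAVEDRAFT_126499, TRAVEDRAFT_126095, TRAVEDRAFT_29790, TRAVEDRAFT_169894, TRAVEDRAFT_38225, TRAVEDRAFT_65506, TRAVEDRAFT_65507, TRAVEDRAFT_169905, TRAVEDRAFT_72824, TRAVEDRAFT_29797, TRAVEDRAFT_72826, TRAVEDRAFT_126145 and TRAVEDRAFT_48911. Its 5 genes of the group are TRAVEDRAFT_126095, TRAVEDRAFT_169894, TRAVEDRAFT_65506, TRAVEDRAFT_169905 and TRAVEDRAFT_72824, and the other 8 missed the rule by their level or ratio. The genes on either side, TRAVEDRAFT_65501 and TRAVEDRAFT_72827, had smallest ratios to poplar of 1.49 and 1.04.

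Most of the 13 genes were also highest with cellobiose alone. Their median levels were 80.8 CPM with cellobiose, 25.9 with 4HBA, 26.5 with syringic acid, 21.7 with lignin and 1.86 on poplar. By edgeR's quasi-likelihood test 11 of the 13 were lower with syringic acid than with cellobiose and 11 were lower with lignin, and none was higher in either. Of all tested genes 22.4% and 23.0% were lower in these comparisons, which both cross the 2 kinds of library. Among the 6833 genes with at least 10 CPM in the 4 groups, 33.5% and 33.7% were lower. Between 4HBA and cellobiose, which are of 1 kind, 12 of the 13 were lower with 4HBA at a median of -1.18, where 7.35% of all tested genes were lower, given as a description since the selection of its 5 genes of the group limited that response. The median log2 difference was -1.57 with syringic acid and -1.85 with lignin. Between lignin and syringic acid 2 of the 13 were lower with lignin, where 4.79% of all tested genes were. These were TRAVEDRAFT_126499 and TRAVEDRAFT_29790, both by 0.55, with adjusted p of 0.0482 and 0.00103 in edgeR's quasi-likelihood test. The most abundant of the 5, TRAVEDRAFT_169894, held 994, 960 and 881 CPM with cellobiose, 424, 354 and 402 with 4HBA, 237, 300 and 211 with syringic acid, 256, 233 and 208 with lignin and 6.52, 6.54 and 7.53 on poplar. Its cellobiose libraries were the highest, those with 4HBA came next, and syringic acid and lignin overlapped. The order below cellobiose differed among the 13. TRAVEDRAFT_65506 was lowest with 4HBA at the mean, with 110, 84.1 and 91.4 CPM with cellobiose, 52.7, 34.1 and 38.4 with 4HBA and 78, 69.6 and 51.3 with lignin. TRAVEDRAFT_48911 averaged 5.11 CPM in the lignin libraries against 4.18 CPM with cellobiose alone, and its difference passed the test in neither comparison.

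**Figure D4:**
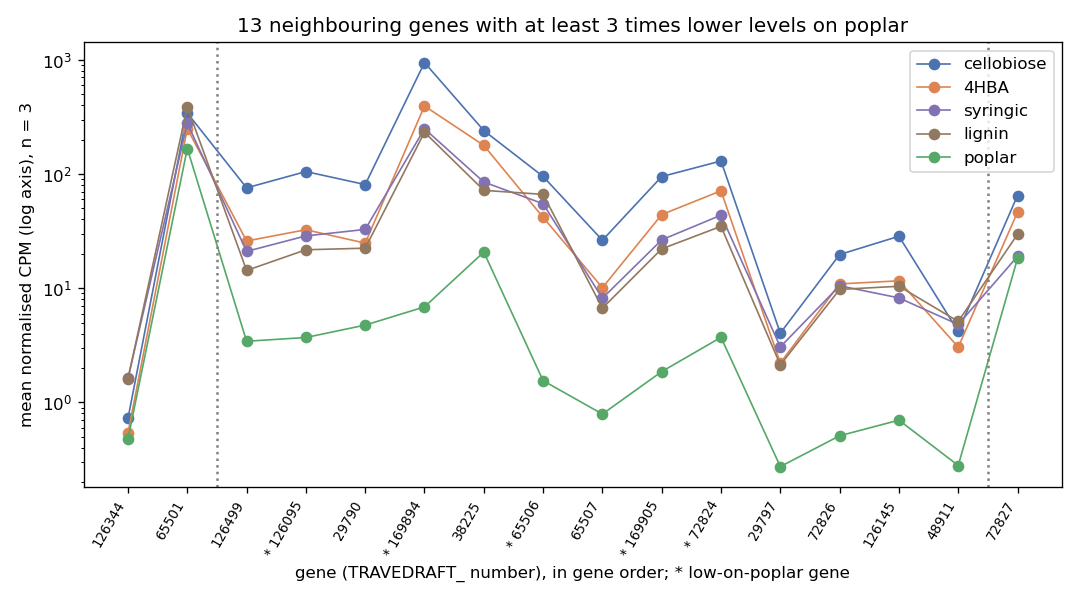
Mean CPM (log axis) in the 5 groups of 13 neighbouring genes in genome order, with 2 genes before and 1 gene after them, where an asterisk marks the 5 genes of the group. Poplar is the lowest line across the 13, with a median of 1.86 CPM against 80.8 CPM with cellobiose, and the smallest ratio to poplar drops to 1.49 and 1.04 at TRAVEDRAFT_65501 and TRAVEDRAFT_72827 on either side.

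Between lignin and syringic acid, 23.1% of the 121 genes and 8.74% of all tested genes were called. Of 12 pairs of immediate neighbours, 6 had no gene called in this comparison and 4 had 1 gene called. Both genes were higher with lignin in 2, TRAVEDRAFT_19706 with TRAVEDRAFT_71369, by 1.29 and 1.14 on the log2 scale, and TRAVEDRAFT_168897 with TRAVEDRAFT_48305, by 1.32 and 1.25. The latter pair lies near TRAVEDRAFT_48307, with TRAVEDRAFT_48306, which did not meet the rule, between them.

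Among the 24 genes higher with lignin were 4 that may be copies of each other and were singled out after their values were seen. TRAVEDRAFT_25294, TRAVEDRAFT_28840, TRAVEDRAFT_29335 and TRAVEDRAFT_32653 each span 508 bases in the annotation. In all, 16 genes have this span, of which 13 were tested, and the others may share reads with these 4 as well. For each pair of the 4, the largest fold between them in any group was between 1.09 and 1.31. The mean levels of the 4 with cellobiose were 19, 24.8, 20.5 and 22.8 CPM. With lignin they were at 23, 27.8, 22.9 and 28.7 CPM and with syringic acid at 13.2, 17.3, 13.5 and 15.8 CPM, log2 differences of 0.80, 0.68, 0.76 and 0.86. Their order among themselves is uncertain, because the counting could split or share reads between near-identical genes. No sequence was at hand to compare them, so the 4 calls may count 1 signal 4 times. TRAVEDRAFT_32653, TRAVEDRAFT_73974 and TRAVEDRAFT_61602 also overlap the span of another gene, and whether the counting used strand is not stated, so their reads are uncertain.

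Some libraries of different groups deviated from their group means in the same genes. The deviations of syringic acid library 2 and of lignin library 1 from their group means correlated at r = 0.77 across the 121 genes, and at 0.73 across the 6712 other genes with at least 10 CPM, so the relation was not limited to the 121. The deviations of cellobiose library 2 correlated at 0.77 with those of lignin library 1 and at 0.73 with those of syringic acid library 2, against 0.58 and 0.51 across the other genes. Across the 121 genes, the values of 0.77, 0.77 and 0.73 were the highest among pairs of libraries from different groups. The lowest was -0.84, between lignin library 1 and syringic acid library 3, against -0.72 across the other genes. Deviations within a group cancel out, so values of both signs occur together. Genes share libraries, and these values are descriptions. Syringic acid library 2 and lignin library 1 were both the lowest of their group in 42 of the 121 genes, 34.7% against 32.5% of the other genes, and both the highest in 43, 35.5% against 24.1%. TRAVEDRAFT_71287 was high in both, at 625 and 563 CPM, and TRAVEDRAFT_166830 was low in both, at 332 and 286 CPM. Leaving out both libraries together, an alternative chosen after the data were seen, gave 33 genes higher and 3 lower with lignin than with syringic acid, against 4.3% and 5.32% of all genes.

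**Figure D5:**
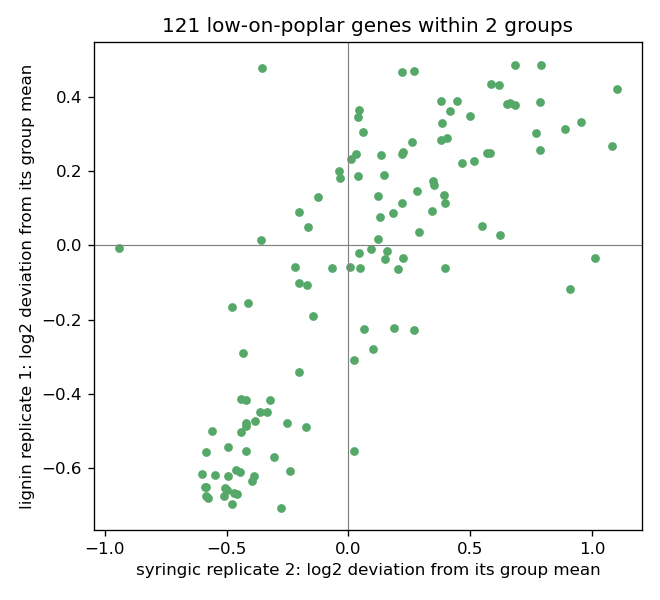
Log2 deviation of each of the 121 genes from its group mean in syringic acid library 2 (horizontal axis) and lignin library 1 (vertical axis), each point a gene. The points run along the diagonal with r = 0.77, and 43 genes are the highest of their group in both libraries while 42 are the lowest in both.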

How the data were processed

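The authors deposited raw read counts by gene, 1 table per library, made with tools that the submitters' processing notes list as FastQC, Bowtie2, Bowtie and HTSeq. For versions, settings and genome build, nothing is given in the sources used here. Per the labels' protocols, ribosomal RNA was depleted with a yeast kit and libraries were stranded. The closing entries that name no gene were left out, at 9.6% to 48.7% of counts, and the entry for reads without a unique alignment was 0 in every library. Libraries of the second fungus of the study were not used.

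Counts of 15 libraries were fitted together in edgeR 4.0.16 (R 4.3.3) with TMM scaling, the default expression filter by group, 1 mean per group and the two-sided quasi-likelihood test, with Benjamini-Hochberg adjustment over 12295 genes and a threshold of 0.05. The biological coefficient of variation was 0.11. The procedure was tested on simulated data for lignin against syringic acid, with 1 dispersion for all genes and independent libraries. Those data lack the shared deviations between libraries described above, so they cannot tell how such deviations affect the calls. CPM values are TMM-scaled. Chi-square per gene between replicate libraries was 7.24 to 61.5, so none was a copy of another. The floor is 3 counts per library and covers counting error only.

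The genes and lists were chosen with earlier results of these data known. Named are the 8 genes with the widest ratio to poplar, the 8 with the highest level, the 4 with the largest rise and the 4 with the largest fall per comparison, the 3 on each side of the ratio limit, and those in runs of neighbours; others are said to be chosen after their values were seen or illustrate a count. Gene lists by product keyword could not be formed, since the reference table gave no product names. RefSeq's T. versicolor table served for names, spans and gene order, and its build was not matched to the files, so no coordinates are printed. Alternatives were RLE and upper-quartile scaling, scaling without genes above 1% of counts, no expression filter and DESeq2 1.42.0. Further ones were fits of the compared libraries alone, other limits of the rule and leaving out each library.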

Additional observations from a re-analysis of the deposited data

How the results depend on the processing

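Alternatives were run for the 4 largest rises and 4 largest falls of each tested comparison, where there were as many, and for the counts; the other differences named were not refitted. All of these differences kept their direction. Of the values with 1 library left out, 454 kept their side of the threshold and 11 did not, and of those under the other alternatives 212 did and 5 did not; the exceptions were TRAVEDRAFT_130193, TRAVEDRAFT_75039, TRAVEDRAFT_60179, TRAVEDRAFT_71517 and TRAVEDRAFT_56531. With 1 library left out, 59 to 71 of the 121 genes were called in syringic acid against cellobiose, 49 to 70 in lignin against cellobiose, 41 to 66 in syringic acid against 4HBA and 21 to 47 in lignin against syringic acid. The last was 47 without syringic acid library 2 and 14 in the fit of the 6 libraries alone; the first cause was not tested, and the second fit has fewer libraries. DESeq2 called 71, 61, 59 and 29. Upper-quartile scaling moved the median of all genes in syringic acid against 4HBA from 0.10 to 0.25 and gave 18 higher and 35 lower, against 9 and 47. It also moved that median from 0.07 to 0.2 in syringic acid against cellobiose and in lignin against cellobiose. Apart from some fits of lignin against syringic acid, the shares of all tested genes called were not computed under these alternatives. The counts of calls therefore describe the 121 genes only. The rule chose 118 to 130 genes with 1 library left out, 79 at a limit of 8 times poplar, 159 at 4 times, 138 under upper-quartile scaling and 120 under RLE. No paired analysis was possible because the labels give these groups no shared replicate numbers. Low poplar levels rested on few reads in some genes, with 19 counts at the lowest.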
